A study of Homo sapiens with 4 samples.

Results

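The distal long arm of chromosome 5 holds many genes of blood formation, and its enhancers and promoters were examined here as places that RNAs visit. The elements were taken from the deposited table of RNA-to-element connections by position alone, as every distinct element on chromosome 5 (hg38) that starts at or beyond 100 Mb. This gave 1090 of 33948 elements, with 5241 of 115357 connections to 268 RNAs. The arm was picked by measured values of the same table, its excess of WT-only over R320*-only connections, so the counts of those connections describe the choice and support nothing further. The elements reached from 100423046 to 181283747 on chromosome 5. The last element outside, an enhancer near LINC02113 (99639197 to 99640772), had 1 connection in R320* only. The first inside, an enhancer near AC113385.1 (100423046 to 100426147), had 1 in WT only. The data come from GRID-seq in K562, an erythroleukaemia-like human line derived from chronic myeloid leukaemia. GRID-seq ligates RNA to the DNA beside it inside fixed nuclei, so that a sequenced molecule pairs a transcript with a genomic position. Of the 4 libraries, 2 came from cells with wild-type RUNX1 (WT) and 2 from cells with RUNX1 R320*, which by its label ends the protein early; RUNX1 is a transcription factor of blood formation. Fixation was the same in all, with DSG (2 mM, 45 minutes) and then formaldehyde (3%, 10 minutes). The labels do not say how the mutation was made, whether the mutant cells are 1 clone, or whether libraries came from separate cultures.

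The deposited table holds 1 score per genotype for each connection and does not say how libraries were combined, so the spread between libraries is not known and no genotype difference could be tested, and sequencing depth is unknown. All differences below are descriptions of these values per genotype. A score is either 0 or above 1.2 in this table, and 0 is read as "not listed". A connection is local, cis (elsewhere on the RNA's own chromosome) or trans (on another chromosome), as the table types it. RNAs for 6 of 17 genes that mark erythroid K562 cells were listed somewhere in the table, and RNAs for 0 of 12 markers of other blood cells. A connection count is not an RNA level, so this does not measure cell identity.

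Nascent RNA stays mostly near the gene that makes it, and RNA found on chromatin close by is used as a marker of active enhancers and promoters in contact with that gene. Some nuclear noncoding RNAs, such as MALAT1 of nuclear speckles and NEAT1 of paraspeckles, also spread to active chromatin on other chromosomes. Distal 5q carries the cytokine cluster with IL3, CSF2, IL4, IL5, IL13 and IRF1, the protocadherin clusters, and genes such as RPS14, CSNK1A1 and EGR1 that are lost in myeloid disease with a 5q deletion. LCP2, also on this arm, encodes the signalling adaptor SLP-76 of T cells, mast cells and platelets.

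Of the 302 promoter elements, 184 held a whole RefSeq promoter window of their nearest gene (GRCh38.p14, whose chromosomes share hg38 coordinates). The 250 bases before the start are printed for LCP2, whose promoter had the most WT-only RNAs, for MATR3, which came next among promoters with 10 WT-only RNAs (18 in WT, 9 in R320*), for EGR1, with many RNAs in both genotypes, and for HSPA4, with equal numbers. Capitals mark 3 families of letters, each searched on both strands. The RUNX letters were TGTGGT and, as a variant, TGCGGT. The GATA letters were AGATAA and, as a variant, TGATAA. The ETS letters were GAGGAA. Matches do not overlap in the windows shown.

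LCP2 (chr5:170297778-170298027, minus strand): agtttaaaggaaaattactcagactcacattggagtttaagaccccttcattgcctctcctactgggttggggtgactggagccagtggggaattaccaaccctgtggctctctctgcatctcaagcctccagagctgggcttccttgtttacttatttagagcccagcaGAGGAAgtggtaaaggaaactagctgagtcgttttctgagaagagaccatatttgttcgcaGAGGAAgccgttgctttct

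MATR3 (chr5:139293490-139293739, plus strand): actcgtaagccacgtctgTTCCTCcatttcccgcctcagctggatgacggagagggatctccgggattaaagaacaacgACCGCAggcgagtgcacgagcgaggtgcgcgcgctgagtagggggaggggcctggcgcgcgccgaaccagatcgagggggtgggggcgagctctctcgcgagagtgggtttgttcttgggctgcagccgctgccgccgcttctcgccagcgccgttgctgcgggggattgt

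EGR1 (chr5:138465229-138465478, plus strand): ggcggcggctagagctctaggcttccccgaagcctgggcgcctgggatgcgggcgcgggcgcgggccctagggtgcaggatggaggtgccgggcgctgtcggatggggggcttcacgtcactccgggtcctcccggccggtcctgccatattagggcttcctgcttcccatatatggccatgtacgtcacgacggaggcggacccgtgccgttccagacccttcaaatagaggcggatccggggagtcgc

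HSPA4 (chr5:133051763-133052012, plus strand): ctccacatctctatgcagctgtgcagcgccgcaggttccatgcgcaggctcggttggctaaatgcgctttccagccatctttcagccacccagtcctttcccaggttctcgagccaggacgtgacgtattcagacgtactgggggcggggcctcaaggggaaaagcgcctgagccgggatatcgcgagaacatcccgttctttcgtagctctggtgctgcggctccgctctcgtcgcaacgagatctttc

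LCP2 held GAGGAA at 80 and 19 bases before the start and MATR3 held GAGGAA and TGCGGT on the minus strand, while the EGR1 and HSPA4 windows held none of these letters. The LCP2 window had a GC content of 47.6%, against 66.0% at MATR3, 68.4% at EGR1 and 59.6% at HSPA4. The RUNX letters stood in 28 of the 184 matched windows (15.2%), near the 16.3% of all 34961 RefSeq windows of this length. By number of visiting RNAs, they stood in 11 of 46 promoters with at least 2-fold fewer RNAs in R320* (23.9%) and in 14 of 111 between 2-fold fewer and 2-fold more (12.6%). In the same sets the ETS letters stood in 23.9% and 17.1%, the GATA letters in 6.52% and 7.21%, and the median GC content was 62.0% and 66.8%. These sets were split by the counts that the arm was picked on, and the differences were not tested. The GATA letters stood in 7.07% of the 184 and in 14.6% of all windows, and the ETS letters in 20.1% and 23.6%. A match of letters is no binding site, and binding was not measured.

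Distal 5q elements had more connections in WT than in R320*. WT listed 4290 and R320* 3077, of which 2126 were in both, 2164 in WT only and 951 in R320* only. WT-only connections were thus 41.3% of the 5241, against 26.3% of all connections in the table, and R320*-only connections 18.1% against 28.5%. Connections in both made up 40.6%, against 45.2%. On the rest of chromosome 5, with 829 elements and 3185 connections, the balance lay the other way, with 20.5% in WT only and 34.2% in R320* only. Among chromosomes taken whole, chromosome 12 (59.4%) and the X (49.3% of 300) had larger WT-only shares than the distal 5q elements. No test of these differences between regions was possible without values per library.

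The WT excess was present in each type of connection, to different extents. Of 207 local connections, WT alone listed 50 and R320* alone 6. Cis connections numbered 1501 in WT only and 704 in R320* only, against 483 and 908 on the rest of chromosome 5. Trans connections numbered 613 and 241, or 66.2% and 26.0% of 926, where the whole table had 47.0% and 41.5%. Chromosome 12 elements had larger WT-only shares in each type, with 54.5% of local, 57.0% of cis and 74.6% of trans connections. Local contacts of RNAs that both genotypes listed somewhere were almost fully shared: 151 of 153 were in both.

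**Figure D1:**
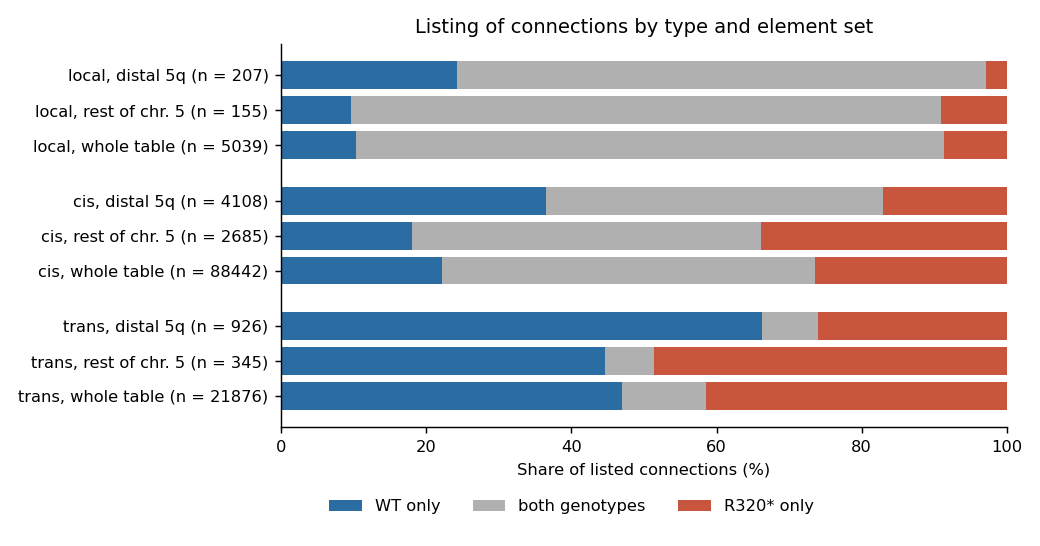
Share of connections (%, horizontal axis) listed in WT only, in both genotypes and in R320* only, for local, cis and trans connections of distal 5q elements, of the rest of chromosome 5 and of the whole table, with the number of connections beside each bar. Trans connections at distal 5q were in WT only in 66.2% of cases, against 44.6% on the rest of chromosome 5 and 47.0% in the whole table.

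Scores of shared connections differed little at the median. Over the 2126, the median score was 1.85 in WT and 1.90 in R320*, and the median difference (R320* minus WT) was 0.0352 with an SD over connections of 0.239. In the whole table that median was 0.0394, so relative to it the distal 5q difference turned to -0.00426. The 72 shared trans connections had a median difference of -0.103, with 50 lower in R320* and 22 higher, against 0.0268 for local and 0.0409 for cis ones. Only 1 of the 2126 differed by at least 1 score unit, or 0.0470%, against 0.175% of all shared connections. It joined YTHDC2, an RNA helicase that reads methylated adenosine, to an enhancer near LINC02200 (112581786 to 112582323), with 2.29 in WT and 1.28 in R320*. Next in that direction were RNF145 at the promoter of the hyaluronan receptor gene HMMR (2.25 and 1.29) and UIMC1 at an NSD1 enhancer (2.36 and 1.53). AC097528.1 at an FCHSD1 enhancer (2.04 and 1.24) and AFF4 at an SLC22A5 enhancer (2.24 and 1.47) followed. In the other direction, the chaperone gene HSPA4 reached an AFF4 enhancer (132907060 to 132908040) with 1.32 in WT and 2.29 in R320*. CSNK1G3 at SNX24 (1.30 and 2.20), AC112178.1 near NEUROG1 (1.37 and 2.26), PRELID2 at FCHSD1 (1.42 and 2.29) and LMAN1 at C5orf66 (1.35 and 2.20) came next. The FCHSD1 enhancer (141641334 to 141642057) stands in both lists, so the score moved in opposite directions for different RNAs at the same element.

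Connections in 1 genotype only lay nearer the lowest listed score. The WT-only ones had a median WT score of 1.52, and 17.1% were above 2, against 38.6% of those in both. R320*-only ones had a median R320* score of 1.47. A connection near 1.2 can be listed or not through a small difference, and that share was not separated from larger ones. With a stricter minimum of 1.5, WT-only connections numbered 1287 and R320*-only ones 642, or 37.4% and 18.7% of 3440, against 25.2% and 28.8% in the whole table.

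RNAs that R320* listed nowhere in the genome supplied a large part of the WT-only set. Of 268 visiting RNAs, 35 (13.1%) had no R320* connection, against 10.4% of all RNAs, and 7 had no WT connection, against 8.61% of all. The 35 made 750 connections at 470 elements, which is 34.7% of the WT-only ones. By position, 24 of them came from genes on distal 5q itself, 4 from chromosome 5 genes that could not be placed, and 7 from other chromosomes. Among the 99 RNAs made on distal 5q these 24 were 24.2%. All 35 together were 28 protein-coding and 7 noncoding RNAs.

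The noncoding AC091987.1 had 103 WT connections here, all cis, at a median score of 1.43, and AC099520.1 had 71 at a median of 1.32. Both spread over much of the arm, from 102.755 to 174.534 Mb and from 103.258 to 175.130 Mb. Several protein-coding RNAs without R320* listing kept to shorter stretches. PAIP2, which encodes a repressor of poly(A)-binding protein, had 42 connections between 138.024 and 140.226 Mb with a median score of 2.41. ATP6V0E1, a subunit gene of the proton pump of acidic organelles, had 39 between 170.293 and 173.904 Mb with a median of 2.08. SEC24A, a coat protein gene of transport vesicles, had 36 between 133.995 and 135.467 Mb with a median of 2.13. ETF1, the release factor that ends translation, had 35 and FAM193B had 34. Others spread further or scored lower. COMMD10 had 39 between 112.546 and 126.526 Mb with a median of 1.53, NYAP2, from chromosome 2, had 23 between 104.143 and 179.637 Mb with a median of 1.74, and RNF130 had 16 with a median of 1.34.

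Many of these RNAs had high local scores in WT, and their lack of R320* scores follows from how they were chosen. Over the 49 local connections of RNAs without R320* listing, the WT score ranged from 1.35 to 3.47 with a median of 2.54, and 40 were above 2. The 151 local connections in both genotypes had a median WT score of 2.34. The 49 were listed through WT alone, so these medians do not compare like with like. HSPA9, the mitochondrial chaperone mortalin, scored 3.20 at its own promoter (138567339 to 138576316) and 3.02 at an enhancer in the gene (138549761 to 138561387). FAM193B scored 2.66 at its promoter and 3.47 at an enhancer. PAIP2 scored 2.90 and 3.00, and ETF1 3.12 and 3.17, at promoter and enhancer. PANK3, a pantothenate kinase of coenzyme A synthesis, scored 2.79 at its promoter and 3.02 at an enhancer. The lowest of the 49 was AC099520.1, with 1.35. HSPA9 and ETF1 are neighbours, and ETF1 scored 3.68 at the HSPA9 enhancer. RNA levels were not measured, so an RNA that is less abundant and one that reaches fewer places cannot be told apart.

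Of the RNAs without WT listing, 2 had more than 3 connections here. AC091959.3 had 43 in R320*, at a median score of 1.74, and SH3PXD2B, an adaptor of invadopodia, had 19 at a median of 1.77. The SH3PXD2B score at a local enhancer (172443095 to 172444702) was 2.86.

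Without the RNAs listed in 1 genotype only, distal 5q still had more WT-only connections, but by less. WT alone then listed 1414 and R320* alone 880, or 32.0% and 19.9% of 4420, against 22.7% and 26.9% for such RNAs in the whole table. With trans connections also left out they were 847 and 648 (23.9% and 18.3% of 3549), against 17.4% and 22.8%. Of 92 RNAs listed in both genotypes with at least 10 connections here, 64 had fewer in R320*, 23 more and 5 the same number. Of RNAs of both genotypes with at least 10 connections in the whole table, 34.3% had fewer in R320*, counted over all their connections. The 92 were counted at distal 5q elements alone, which were picked on their WT excess, so these counts are unlike. Over the 90 of the 92 that were listed here in both genotypes, the median log2 ratio (R320* over WT) was -0.15.

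The RNA with most connections here was LINC02163, a noncoding RNA of chromosome 5, with 111 in WT and 131 in R320* at 169 elements from 100.535 to 176.630 Mb. Elsewhere it went the other way, with 254 in WT and 134 in R320*. PRELID2 had 78 and 87, and MARCH3, a membrane ubiquitin ligase gene now named MARCHF3, had 89 and 76. FNIP1, a folliculin partner in nutrient sensing, had 89 and 68. The formin gene DIAPH1 had 80 and 77, and LARP1, which binds ribosomal protein messages, 75 and 57. ANKHD1 had 68 and 53, and the readthrough ANKHD1-EIF4EBP3 had 67 and 52; their gene models overlap and cannot be counted apart. RAPGEF6 had 70 and 58. Of the 92, 10 had at least 2-fold fewer in R320* here, including AL713998.1 and CCDC26 with 0, and all 10 were made on other chromosomes. At least 2-fold more were found for 2, both made on distal 5q. Those 2 were the lymphocyte kinase gene STK10 (6 in WT, 18 in R320*) and PAM (8 and 20), an amidating enzyme gene, named after their values were seen. The share of RNAs with 2-fold differences over the whole table was not counted, so the 10 and 2 stand without a background. AL713998.1 and CCDC26 reached the minimum of 10 connections through WT alone. The arm was picked on its WT excess, so nothing is drawn from these counts or from where these RNAs were made.

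RNAs from other chromosomes made 685 contacts in WT and 313 in R320*. Of these 139 RNAs, 93 had more in WT, 37 more in R320* and 9 equal counts, and the same shares over all RNAs with trans connections were not counted. SMYD3 (1 in WT, 7 in R320*) and RYR2 (1 and 6) were among the 37. The 5 with most connections gave 30.0% of the 926. Elsewhere in the genome the same 139 RNAs made 8246 trans contacts in WT and 7737 in R320*. Of the 20 with at least 10 connections here, 20 had fewer in R320* here, and 8 of the 20 had fewer elsewhere. The arm was picked on its WT excess, so the count here describes the choice. The minimum of 10 counted both genotypes together, and AL713998.1, NYAP2 and CCDC26 reached it through WT alone. Of RNAs with at least 10 trans connections in the whole table, 44.7% had fewer in R320*. That share counts all their trans connections, so it is no like background for the 20. MALAT1 had 50 connections in WT and 16 in R320* here, against 616 and 689 elsewhere. NEAT1 had 55 and 34 here, against 731 and 1087. LINC02476 had 41 and 14 here, against 470 and 471, and AC097528.1 had 39 and 19, against 372 and 470. LMAN1, a cargo receptor gene of the secretory pathway, had 36 and 17, and also fewer elsewhere (504 and 444). AL713998.1 (24 and 0), NYAP2 (23 and 0) and CCDC26 (13 and 0) had few or none elsewhere in R320* either: 13, 0 and 24. NYAP2 is 1 of the 35 RNAs without R320* listing. Contacts of 1 RNA at neighbouring elements are not independent.

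**Figure D2:**
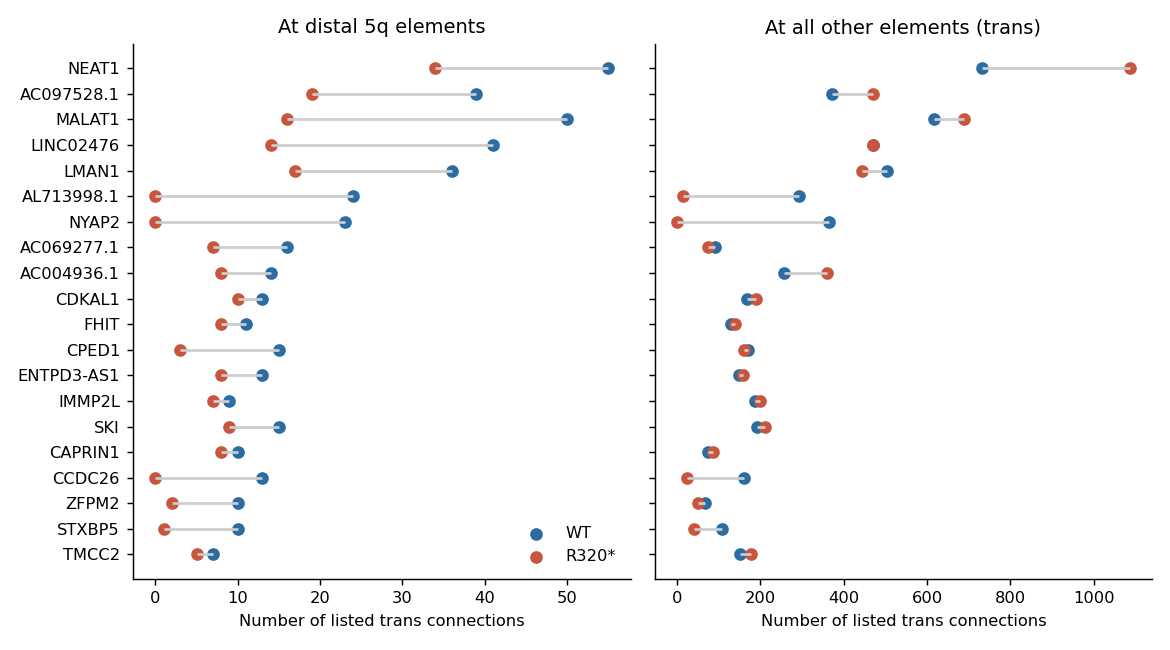
Number of listed trans connections (horizontal axes, linear, different ranges) in WT and R320* for the 20 RNAs of other chromosomes with at least 10 connections to distal 5q elements, at those elements (left) and at all other elements (right). At distal 5q the R320* point lies to the left of the WT point for all 20, and elsewhere for 8. The arm was picked on its WT excess, so the left panel describes the choice.

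Away from distal 5q, RNAs made there differed among themselves. The 99 with a RefSeq position had 3195 connections in WT and 2472 in R320* at distal 5q elements, 3 and 14 on the rest of chromosome 5, and 307 and 313 on other chromosomes. FBXO38 alone made 154 connections in WT and 192 in R320* outside distal 5q. A large part of the counts elsewhere thus came from this 1 RNA. Conversely, 20 RNAs from the rest of chromosome 5 made 13 contacts with distal 5q elements in WT and 29 in R320*, with 0 in both. A further 9 chromosome 5 RNAs had no RefSeq position but local connections on distal 5q. On other chromosomes, WT listed 520 of their contacts and R320* 64; the noncoding LINC02163 gave 242 and 61 and AC099520.1 gave 266 and 0. On the rest of chromosome 5 they had 12 and 73, all from LINC02163.

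Sharing differed with distance from the RNA's gene. For RNAs listed in both genotypes, 518 of 536 connections under 100 kb were in both, with 5 in WT only and 13 in R320* only. From 100 kb to 1 Mb WT alone listed 215 and R320* alone 154 of 1434. From 1 to 10 Mb there were 461 and 328 among 1106, and at 10 Mb or more 107 and 78 among 194. On the rest of chromosome 5 the same classes beyond 100 kb had 67 and 141, 203 and 361, and 42 and 127. Median WT scores of shared connections went down with distance, from 2.31 under 100 kb to 1.84, 1.56 and 1.34. The WT excess of these RNAs thus lay at 100 kb and beyond, and the counts under 100 kb did not share it.

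Along the arm, in 10 Mb windows, WT-only connections outnumbered R320*-only ones in all 9. Genome-wide this was so in 76 of 244 windows of that size with at least 100 connections. The arm was picked on this excess, so the count of 9 describes the choice. On distal 5q the largest numbers were 662 and 240 at 130 to 140 Mb, with the cytokine cluster and EGR1, and 443 and 159 at 170 to 180 Mb. At 140 to 150 Mb they were 319 and 220. The window of 180 Mb to the end had 70 and 15. At 5 Mb resolution the balance turned near the border: 95 to 100 Mb had 38 in WT only and 75 in R320* only, 100 to 105 Mb had 34 and 39, and 105 to 110 Mb had 94 and 12. The excess at 100 to 110 Mb rested on RNAs without R320* listing. Without RNAs listed in 1 genotype only, this window had 27 and 48, while the other 8 windows had more in WT only. The counts were close at 110 to 120 Mb (62 and 59) and at 160 to 170 Mb (37 and 33). In cis, those RNAs had 15 in WT only and 40 in R320* only at 100 to 110 Mb and 51 and 57 at 110 to 120 Mb, and more in WT only in the other 7 windows. The trans part in WT only was 62.3% at 130 to 140 Mb and 67.5% at 170 to 180 Mb, but 36.4% of 22 connections at 160 to 170 Mb.

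**Figure D3:**
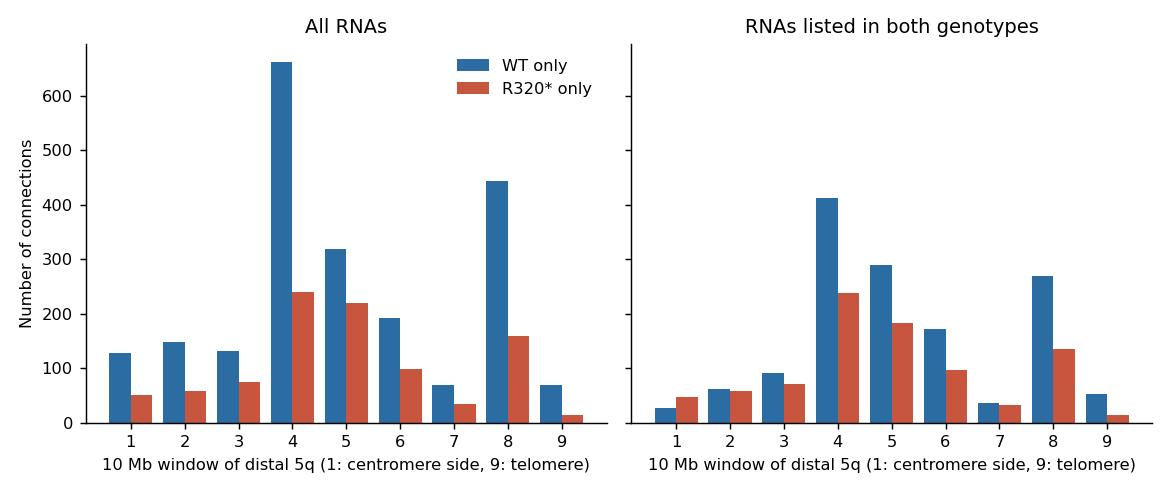
Number of connections (vertical axis) in WT only and in R320* only in the 9 windows of 10 Mb of distal 5q, from the centromere side to the telomere, for all visiting RNAs (left) and for RNAs listed in both genotypes (right). WT-only bars are higher in all 9 windows on the left, and in 8 on the right, where the first window has 27 and 48. On the right the bars are close at 110 to 120 Mb (62 and 59) and at 160 to 170 Mb (37 and 33).

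The elements were 788 enhancers and 302 promoters, with 72.3% enhancers against 70.3% in the whole table. Enhancers had a median length of 1240.5 bp and promoters of 2931.5 bp. By the table's own distance field, 769 elements (70.6%) lay at a gene. Enhancers and promoters had similar shares of WT-only connections, 42.2% of 3503 and 39.4% of 1738, against 26.6% and 25.8% in the whole table. Promoters met more RNAs, with means of 4.68 in WT and 3.49 in R320*, against 3.65 and 2.57 for enhancers. RNAs were listed in WT alone at 18.0% of the enhancers and 4.97% of the promoters, against 13.6% and 8.27% in the whole table. In R320* alone they were listed at 4.82% and 1.32%, against 12.5% and 9.18%. For elements whose nearest gene is noncoding, 485 of 1046 connections were in WT only, and for protein-coding ones 1679 of 4195.

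Counted by element, 668 of 1090 met more RNAs in WT, 182 more in R320* and 240 the same number. RNAs were listed in WT alone at 157 elements (14.4%, against 12.0% of all elements) and in R320* alone at 42 (3.85%, against 11.5%). Of 731 elements listed in both genotypes with a mean of at least 2 RNAs, 192 met at least 2-fold fewer RNAs in R320* (26.3%, against 9.60% of such elements in the table). At least 2-fold more were met by 25 (3.42%, against 12.4%). On chromosome 12, 54.8% of 628 such elements met at least 2-fold fewer, a larger share than here. Promoters and enhancers of distal 5q were close, with 27.6% and 25.6% at 2-fold fewer. With only same-chromosome connections of RNAs listed in both genotypes, an alternative added after the data were seen, the counts were 51 and 40 of 640, or 7.97% and 6.25%, against 4.59% and 8.60% in the whole table. The 192 and 25 of all connections thus came to nearly even counts in this smaller set.

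**Figure D4:**
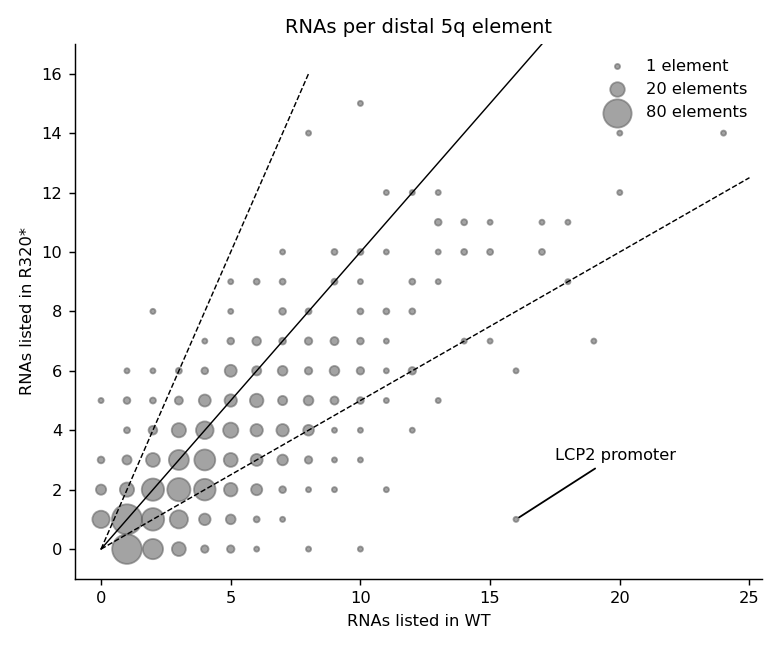
RNAs listed in R320* (vertical axis) against RNAs listed in WT (horizontal axis) at each of the 1090 distal 5q elements, with point area growing with the number of elements at the same position. The solid line marks equal numbers and the dashed lines 2-fold differences; more elements lie below the solid line (668) than above it (182).

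At the LCP2 promoter (170296312 to 170298082), 16 RNAs were listed in WT and 1 in R320*. Of the 16, 11 were cis, from genes 1.09 to 24.5 Mb away where they could be placed, and 5 were trans; none was made at LCP2 itself. WT scores ran from 1.24 to 2.47 with a median of 1.72. PANK3 had the highest at 2.47, then NPM1, the nucleolar protein nucleophosmin, with 2.25. FBXW11, a substrate receptor of the SCF ubiquitin ligase, scored 2.22 in WT and was the 1 RNA kept in R320*, with 1.76. ATP6V0E1 scored 2.05, SND1 2.05, FHIT 1.96 and LINC02476 1.77. LARS (leucyl-tRNA synthetase, 1.75), PPARGC1B (1.69), AC110614.1 (1.64) and AC091987.1 (1.63) followed. AC099520.1 (1.36), COL23A1 (1.32), PRELID2 (1.31), RAPGEF2 (1.25) and LINC02163 (1.24) lay near the lowest listed score.

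Of the 15 RNAs in WT only at this promoter, 5 were listed nowhere in R320*, namely PANK3, ATP6V0E1, AC091987.1, AC099520.1 and AC110614.1. The other 10 were listed in R320* at other elements, several as often as in WT: SND1 had 77 connections in each genotype over the whole table, NPM1 24 in WT and 25 in R320*, FHIT 178 and 202, and RAPGEF2 170 and 253.

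**Figure D5:**
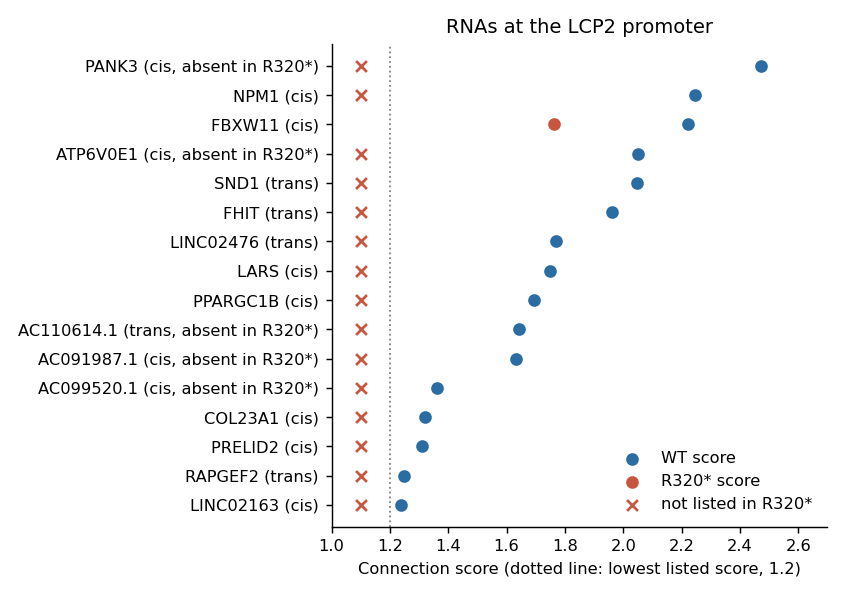
Connection scores (horizontal axis, the authors' score) of the 16 RNAs at the LCP2 promoter in WT and R320*, with crosses where an RNA was not listed in R320*. FBXW11 alone has both values, 2.22 and 1.76.

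The elements beside this promoter met largely the same RNAs. The nearest enhancer in LCP2 (170293366 to 170293591) met 8 RNAs in WT, which were all among the 16, and 0 in R320*. An enhancer in LINC01366 (170301715 to 170308683) met 10 and 0, the highest number among elements without R320* listing. Another in LINC01366 (170327251 to 170335251) met 3 and 1, with FBXW11 at 1.30 in WT and 1.96 in R320*. All 13 connections of these LINC01366 enhancers came from RNAs also found at the promoter, so the elements are not separate observations. A further LCP2 enhancer (170275757 to 170280641) met 3 and 2, with NPM1 at 1.82 and 1.79. Over the 5 elements of LCP2 and LINC01366, WT alone listed 36 of 40 connections and R320* alone listed 0.

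Around them the balance was different. Within 1 Mb of the promoter, 8 of 14 elements had more RNAs in WT and 4 more in R320*. The 8 include the 5 elements of LCP2 and LINC01366. The others of the 8 were the SPDL1 promoter, with 1 in WT and 0 in R320*, and enhancers near LINC01187, with 2 and 1 each. The 4 with more in R320* were enhancers of DOCK2, a Rac activator of lymphocytes and the neighbour of LCP2. Of these, an enhancer at 169703109 to 169704212 met only 0 in WT and 2 in R320*. Enhancers at 169766851 to 169768975 and 169778968 to 169779624 met only 0 and 1 each. The main one (169743171 to 169748060) met 11 in WT and 12 in R320*, with 5 in both. There NPM1 (1.77), FBXW11 (1.31) and LINC02476 (1.21) were in R320* only, while PANK3 (2.07) was in WT only. DOCK2 RNA was listed there in both, at 1.28 and 1.70. NPM1 and FBXW11 thus reached DOCK2 in R320* and the LCP2 enhancer in both genotypes.

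Other elements with many WT-only RNAs had smaller ratios. Near PRELID2, 24 RNAs in WT and 14 in R320* reached an enhancer (145839537 to 145840406), with 10 in both. An enhancer near CPEB4 (173847568 to 173880790) met 16 and 6, and an enhancer in HNRNPH1 (179607579 to 179626119), a splicing regulator gene, 19 and 7. An enhancer near WSPAR (133924382 to 133925041) met 17 and 11, and an enhancer at IRF1, an interferon-responsive factor gene (132485965 to 132486350), 20 and 12. By ratio, VDAC1, the mitochondrial outer membrane channel gene, came after LCP2, with 7 and 1 at an enhancer (133994984 to 133997374) and 6 and 1 at its promoter. An enhancer in COMMD10 (116363968 to 116365540) met 6 and 1.

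In the other direction, 8 RNAs in WT and 14 in R320* reached an enhancer in MFAP3 (154195160 to 154207057), and the MFAP3 promoter (154189242 to 154192380) 1 and 5. An enhancer in SEPT8 (132768590 to 132793435) met 10 and 15, and an enhancer in SH3PXD2B (172443095 to 172444702) 7 and 10. The promoters of PCBD2 and HSPA4 had 7 and 6 RNAs in R320* only but nearly equal totals, 9 and 10, and 9 and 9. An enhancer near PPIP5K2 (103224157 to 103224654) met 1 and 6, and enhancers near CCDC112 and in ADAMTS19 met 1 and 5 each. Elements with most RNAs in both were an enhancer in C5orf56 (132434525 to 132438312; 12 and 12, 11 shared), an enhancer near EGR1 (138472206 to 138473069; 20 and 14, 11 shared) and the IL13 promoter (132660823 to 132664409; 14 and 11, 10 shared).

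Blood genes of the arm were followed as nearest genes of the elements. For the 456 nearest genes on distal 5q, 312 (68.4%) had more connections in WT and 82 more in R320*, against 34.7% and 41.8% over the whole table. Among 27 blood and immune genes with elements, of 37 on the list, 18 had more in WT, 4 more in R320* and 5 equal counts. Their median log2 ratio was -0.42, as for the 426 genes of the arm listed in both genotypes. IRF1 elements had 34 and 23 connections, CSF2 (the growth factor GM-CSF) 31 and 20, the receptor gene PDGFRB 28 and 21, LCP2 27 and 3, DOCK2 12 and 17, and IL13 14 and 11. IL4 had 10 and 10.

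Genes listed for blood disease with 5q deletion, spread along the arm, lay near the same background. Of 26 with elements, 18 had more in WT, 6 more in R320* and 2 equal counts (median log2 ratio -0.43). The early response gene EGR1 had 45 and 34, HSPA9 41 and 29, the alpha-catenin gene CTNNA1 33 and 22, and CXXC5 30 and 17. CSNK1A1, the casein kinase that lenalidomide degrades, had 23 and 31, and the glucocorticoid receptor gene NR3C1 17 and 20. The ribosomal protein gene RPS14 had 11 and 7. Among genes with elements, both lists hold NPM1, CD74, TNIP1 and SPARC. Of 6 protocadherin genes with elements, 2 had more in WT, 2 more in R320* and 2 the same number; PCDHGA2 had 8 and 3.

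The same genes were also followed as RNA sources. Of 12 genes of the 5q deletion list found as RNAs, 7 had more connections at distal 5q elements in WT, 1 more in R320* and 4 the same number. Of all 99 RNAs placed on distal 5q, 69 had more in WT and 24 more in R320*. DIAPH1 had 80 and 77, CSNK1A1 58 and 52, and the stress granule gene G3BP1 59 and 35. The DNA repair gene RAD50 had 39 and 33, and the Wnt regulator APC 30 and 30. HSPA9 had 28 and 0. Of the blood list, NPM1 had 24 and 25, STK10 6 and 18, and DOCK2 2 and 2. The globin RNAs HBE1 and HBG2, from chromosome 11, had 2 connections here in WT and 5 and 4 in R320*, with 0 in both; the genes lie side by side and may not be separate.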

How the data were processed

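K562 GRID-seq libraries were assigned to WT or R320* from their labels. Per the submitters' processing notes, cutadapt 1.12, BWA and bedtools were used on hg38. The authors deposited 1 connection score per genotype, with no values per library, and their difference (R320* minus WT); the formula of the score is not stated in the labels or the table. A connection was called listed where its score was above 0. Elements and RNAs were compared by number of listed connections with pandas 2.3.3, for 2-fold differences at a mean of at least 2 RNAs. Counting was tested on simulated data. Starts in the table, taken as 0-based, are printed 1-based. RNA genes were placed by symbol in a RefSeq table of GRCh38.p14: 242 of 268, 8 through an older symbol; MATR3, with 2 identifiers, was kept as 2 RNAs. Distance ran from the nearest gene end. The members, lists and named items (the elements and RNAs with most connections or the largest ratios) were chosen with earlier results of these data known. Depth is unknown. Alternatives were another score minimum, RNA set, connection type, boundary, merging of neighbours, minimum, centring and element block. Elements fall into a pair of blocks in the table, with median lengths here of 3130 and 681.5 bp.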

Additional observations from a re-analysis of the deposited data

How the results depend on the processing

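No paired analysis was possible because the deposited table has 1 value per genotype and none per library; for the same reason no library could be left out. Under all settings run, WT-only connections outnumbered R320*-only ones, and more elements had at least 2-fold fewer RNAs in R320* than 2-fold more. The arm was picked on that excess and each setting recounts the same connections, so this shared direction supports nothing further. From 2164 in WT only, the number was 1287 at a score minimum of 1.5 and 1414 with RNAs listed in both genotypes. It was 847 with only their same-chromosome connections, a setting chosen after the data were seen. Merged within 1 Mb per RNA, connections numbered 427 in WT only, 182 in R320* only and 244 in both. Elements with at least 2-fold fewer RNAs (192) numbered 121 at a score minimum of 1.5, 75 at a minimum mean of 4 RNAs, 90 with RNAs listed in both genotypes and 51 with their same-chromosome connections. Those with 2-fold more (25) numbered 4 at the higher mean, 38 with RNAs listed in both genotypes and 40 with their same-chromosome connections. In the first and second block of elements, also chosen then, WT-only connections numbered 1437 and 727, 2-fold fewer 127 and 65, and 2-fold more 15 and 10; the second block had 285 in R320* only and 609 in both. These are smaller sets by construction. The median score difference of 0.0352 turned to -0.00426 when centred on the whole table. Trans contacts left out, a border at 110 Mb and the LCP2 neighbourhood left out kept every count within 1.5 times. Depth is unknown, so which unlisted connections lie just under 1.2 cannot be told.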
